A study of Mus musculus with 6 samples.

Results

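The sine oculis homeobox genes Six2, Six4 and Six5 and their cofactor genes Eya1, Eya2, Eya3 and Eya4 were examined in the chromatin of TrkC neurons, sensory cells of the mouse dorsal root ganglia, at stage E11.5. These 7 genes, 3 of the homeobox family and 4 of the Eya family, were chosen by name among 21887 protein-coding genes that RefSeq annotates on GRCm38 (mm10). Other members of the homeobox family are not analysed here. The locus of a gene is its annotated span with 1 kb at each end and the flanks up to the neighbouring protein-coding genes, at most 100 kb on each side. The 7 loci held 40 of 43652 peaks of open chromatin, measured by the assay for transposase-accessible chromatin (ATAC-seq), and 16 of 19924 peaks of H3K27ac, the acetylation of histone H3 found at active promoters and enhancers, measured by ChIP-seq.

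All groups came from Runx3-BAC-GFP-CB6 transgenic embryos, in which a Runx3 bacterial artificial chromosome drives GFP, and GFP-positive ganglion cells were sorted after fixation. The 6 samples were 2 ATAC preparations, 2 H3K27ac preparations and 2 input DNA preparations of 50000 cells each. The peaks are 1 consensus list per assay, merged over its replicates by the authors and holding positions without signal, so neither a level of openness or acetylation nor a spread between replicates can be given. The depth of each sample is unknown, and no input values were used.

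Sine oculis proteins are homeodomain transcription factors, and Eya proteins are coactivators and phosphatases that do not bind DNA themselves but act in complexes with these factors. Both families work with Dach cofactors downstream of or beside Pax factors in a network first worked out in the Drosophila eye. In mice the network is known for its part in cranial sensory placodes and their neurons, the inner ear, skeletal muscle precursors and the kidney. Six4 is known from sensory ganglia and muscle precursors, Six2 maintains nephron progenitors in the kidney, and Six5 lies beside Dmpk, the myotonic dystrophy gene. Eya1 and Eya4 are known from inherited hearing loss in humans.

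The chromatin of the sorted cells was set beside marker genes by the same measures for each list: H3K27ac within 1 kb of an annotated end, which 49.3% of all protein-coding genes had, and H3K27ac in the gene span, which 54.4% had. Of 6 sensory neuron markers, 5 (Pou4f1, Isl1, Elavl4, Stmn2 and Tubb3) were acetylated at an end and 6 in the span, Prrxl1 by its span alone. Runx3 and Ntrk3, which define the TrkC lineage, were not acetylated at an end (0 of 2) but both were in the span, with 3 and 4 H3K27ac peaks. The embryos also carry the Runx3 bacterial artificial chromosome, and its part in the Runx3 peaks was not tested. The 5 skeletal muscle genes and the 4 placode and inner ear genes had 0 by either measure, and the 4 kidney progenitor genes had 1 by either, Sall1. Of 3 endothelial and 3 blood genes 0 were acetylated at an end, but Pecam1 and Ptprc each held 1 H3K27ac peak in the span. Of the glial and neural crest genes reported here, Sox10, Foxd3 and Erbb3, all 3 were acetylated at an end and 2 in the span, and the part of such cells in the peaks of the 7 genes was not tested. The lists are short, and by H3K27ac at the end the TrkC lineage genes stood no higher than the muscle, placode, endothelial and blood lists. An ATAC peak at an end, which 60.4% of all genes had, lay at 5 of 6 sensory neuron and 1 of 2 TrkC lineage genes. It lay at 3 of 5 muscle, 3 of 4 kidney, 2 of 4 placode and 1 of 3 glial and neural crest genes. Endothelial genes had it at 1 of 3 and blood genes at 0 of 3. By openness at an end, TrkC lineage genes thus did not stand above the muscle, kidney and placode lists.

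The 250 bases before the annotated start are printed for the 5 genes with an entry in the RefSeq promoter table of GRCm38.p6. Capitals mark bases inside an ATAC peak. Where a gene has several annotated starts (Six4 and Eya4), the one with most ATAC coverage in this stretch is shown, so its coverage is the higher by choice. At the other listed start the stretch was 67.2% inside an ATAC peak for Six4 and 56.4% for Eya4. The Six4 sequence (chr12:73113246-73113495, minus strand) and the Six2 sequence (chr17:85688255-85688504, minus strand) lay wholly inside an ATAC peak, and the Six4 sequence alone of these was also inside an H3K27ac peak. The Eya3 sequence (chr4:132638796-132639045, plus strand) was 86% inside an ATAC peak and wholly inside an H3K27ac peak. The Six5 sequence (chr7:19094294-19094543, plus strand) was wholly inside an H3K27ac peak but shared only its first 25 bases with an ATAC peak. The Eya4 sequence (chr10:23349944-23350193, minus strand) was 77.6% inside an ATAC peak and met no H3K27ac peak.
Six4: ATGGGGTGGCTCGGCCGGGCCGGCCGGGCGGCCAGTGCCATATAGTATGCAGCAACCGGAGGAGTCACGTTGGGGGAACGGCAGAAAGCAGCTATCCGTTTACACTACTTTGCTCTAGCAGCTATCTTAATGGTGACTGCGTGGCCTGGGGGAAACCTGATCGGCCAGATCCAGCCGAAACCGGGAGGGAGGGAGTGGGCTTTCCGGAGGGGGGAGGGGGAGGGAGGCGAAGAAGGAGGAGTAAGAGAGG
Six5: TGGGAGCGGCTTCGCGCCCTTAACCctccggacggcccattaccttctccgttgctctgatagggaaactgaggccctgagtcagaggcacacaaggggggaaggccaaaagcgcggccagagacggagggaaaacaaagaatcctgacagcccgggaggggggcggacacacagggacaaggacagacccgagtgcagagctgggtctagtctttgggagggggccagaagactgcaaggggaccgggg
Eya3: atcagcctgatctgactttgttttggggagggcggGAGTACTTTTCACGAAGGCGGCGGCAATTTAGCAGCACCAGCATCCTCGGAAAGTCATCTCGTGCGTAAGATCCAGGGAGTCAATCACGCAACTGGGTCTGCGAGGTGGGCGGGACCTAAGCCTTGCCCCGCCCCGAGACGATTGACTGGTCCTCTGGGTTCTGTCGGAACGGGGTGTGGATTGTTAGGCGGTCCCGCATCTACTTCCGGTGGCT
Six2: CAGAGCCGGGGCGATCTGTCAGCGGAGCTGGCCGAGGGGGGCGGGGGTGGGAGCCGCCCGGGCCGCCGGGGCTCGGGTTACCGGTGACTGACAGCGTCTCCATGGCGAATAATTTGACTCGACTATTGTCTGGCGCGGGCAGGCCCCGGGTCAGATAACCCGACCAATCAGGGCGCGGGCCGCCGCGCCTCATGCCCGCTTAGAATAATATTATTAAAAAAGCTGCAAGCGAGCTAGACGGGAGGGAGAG
Eya4: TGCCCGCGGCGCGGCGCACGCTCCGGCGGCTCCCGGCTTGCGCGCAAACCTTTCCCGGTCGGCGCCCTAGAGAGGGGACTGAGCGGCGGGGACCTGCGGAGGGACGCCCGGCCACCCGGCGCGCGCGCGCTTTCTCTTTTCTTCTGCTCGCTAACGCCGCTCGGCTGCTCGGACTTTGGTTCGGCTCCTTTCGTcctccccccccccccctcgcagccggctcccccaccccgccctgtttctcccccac

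Most of the genes were open at an end, and somewhat fewer carried the active mark there. An ATAC peak lay within 1 kb of an annotated end of 6 of 7 genes (85.7%, 95% Wilson interval 48.7 to 97.4), against 60.4% of all protein-coding genes. An H3K27ac peak lay there at 5 of 7 genes (71.4%, 35.9 to 91.8), against 49.3% of all genes. Both background shares lie inside the intervals of the 7 genes. With 7 genes, chosen by name, these intervals are wide and cannot decide whether the genes differ from all genes. The genes fell into 3 states. Six4, Six5, Eya1 and Eya3 carried both marks (47.8% of all genes did), Six2 and Eya4 were open without the mark (12.7% of all genes), and Eya2 carried the mark without an ATAC peak (1.50% of all genes). None of the 7 carried neither, the state of 38.1% of all genes. Of the 6 open genes 4 were acetylated, and of all open genes 79.1% were. With a window of 0.5 kb, 5 of the 7 genes were open and 4 acetylated (56.5% and 47.2% of all genes). With a window of 2.5 kb these counts were 7 and 5 (66.2% and 52.1%), and with only the wider 50% of each list they were 5 and 4 (54.3% and 32.5%).

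**Figure D1:**
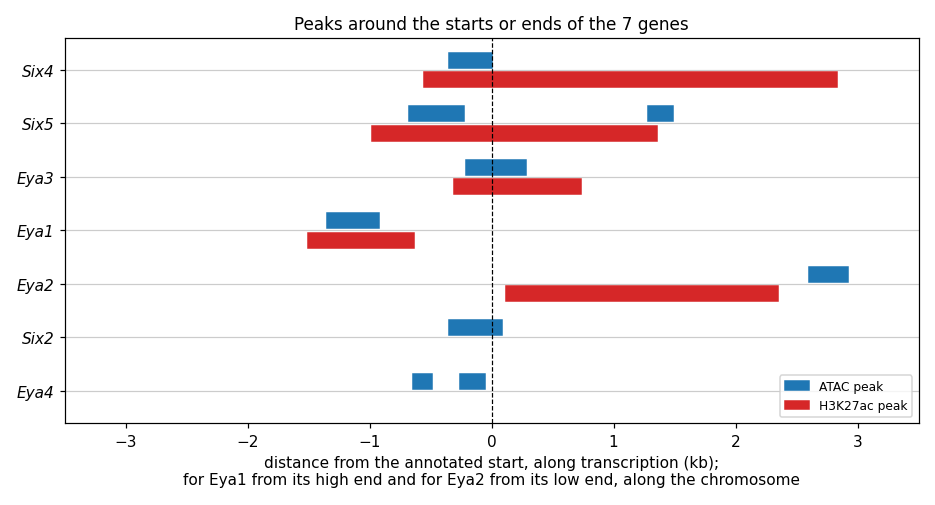
ATAC peaks (blue, above each line) and H3K27ac peaks (red, below it) around the annotated start of each gene, in kb along transcription. For Eya1 and Eya2, which have no entry in the promoter table, positions are given along the chromosome from the high-coordinate and the low-coordinate end. Six4, Six5, Eya3 and Eya1 show both assays together, the marked stretch of Eya2 stops short of its nearest ATAC peak, and Six2 and Eya4 show ATAC alone.

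Six4, a partner of Eya proteins in sensory ganglia and muscle, had the widest acetylated start of the 7. Its H3K27ac peak (chr12:73110413-73113802) measured 3390 bp and ran from position -557 to 2832, counted from the annotated start along transcription. In the whole H3K27ac list, 3.57% of peaks were wider. The ATAC peak (chr12:73113245-73113593) measured 349 bp and ran from -348 up to the start itself. Counted from the other listed start of Six4, the ATAC peak ran from -168 to 180, across that start, and the H3K27ac peak from -377 to 3012. The annotated span runs farther upstream than either start, and both peaks lay inside it, 438 and 229 bp from its end. The mark reached farther into the gene than upstream from either start, whereas the place of the open stretch depended on the start. The span of Mnat1, which encodes a subunit of a cyclin-dependent kinase complex, begins inside this H3K27ac peak in the annotation, although its entry in the promoter table lies farther away.

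The flank of Six4 held the widest acetylation of any of the 7 loci. On the low-coordinate side, 41.3 kb from the gene, lay an H3K27ac peak of 8461 bp (chr12:73049867-73058327) with an ATAC peak of 443 bp inside it. Only 0.191% of all H3K27ac peaks were at least as wide. This peak was nearer to the neighbouring protein-coding gene (3.15 kb) than to Six4. A further H3K27ac peak of 8841 bp reached only 276 bp into the flank, and the rest of it lay beyond the locus. Both this peak and the ATAC peak of 495 bp that it met lay on an annotated end of another protein-coding gene. With these, H3K27ac covered 12127 bp or 17.8% of the 68.3 kb locus, and 3.39% of all loci had as high a share. All 3 ATAC peaks of the locus overlapped H3K27ac, and all 3 H3K27ac peaks met an ATAC peak. The ATAC peak of 495 bp lay 91.1% inside the mark and the others wholly. Inside Six4 and within 1 kb of it there was 1 peak of each assay. Which gene the wide peaks belong to cannot be told from these lists.

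Six5, a homeodomain factor next to Dmpk, had a short locus of 6.01 kb and was acetylated across its start. The H3K27ac peak (chr7:19093565-19095900) measured 2336 bp and ran from -979 to 1356 relative to the start. An ATAC peak of 454 bp ended 226 bp before the start and another of 208 bp began 1280 bp inside the gene. The mark met both and covered the stretch between them, which holds the start. The upstream ATAC peak was 44 bp from the annotated end of Dmpk and thus closer to that gene than to Six5. The H3K27ac peak also ran over this end of Dmpk, so the mark did not lie at the Six5 start alone. Bhmg1 overlaps the other end of Six5 in the annotation, and the locus therefore has no flank on that side. H3K27ac covered 38.9% of the locus, and 0.635% of all loci had as high a share, but only 2.74% of loci were smaller.

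Six2, a factor of nephron progenitors, had ATAC peaks but no H3K27ac peak in its locus. Its ATAC peak at the start (chr17:85688171-85688605) measured 435 bp and ran from -351 to 83 relative to the start. It was wider than that of Six4, and 14.1% of the 4109 unacetylated ATAC peaks at gene ends were at least as wide. A non-coding gene, CJ186046Rik, has an annotated end within 1 kb of this peak. The locus of 162 kb held 5 further ATAC peaks of 121 to 272 bp, 2 inside the gene and 3 in the flanks, and no H3K27ac peak. The H3K27ac peak nearest to the open start lay 292 kb away. Loci without an H3K27ac peak made up 36.0% of all loci, and 12.8% of the loci of genes with an open end. With flanks of up to 200 kb the Six2 locus held 10 ATAC peaks and still 0 H3K27ac peaks.

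**Figure D2:**
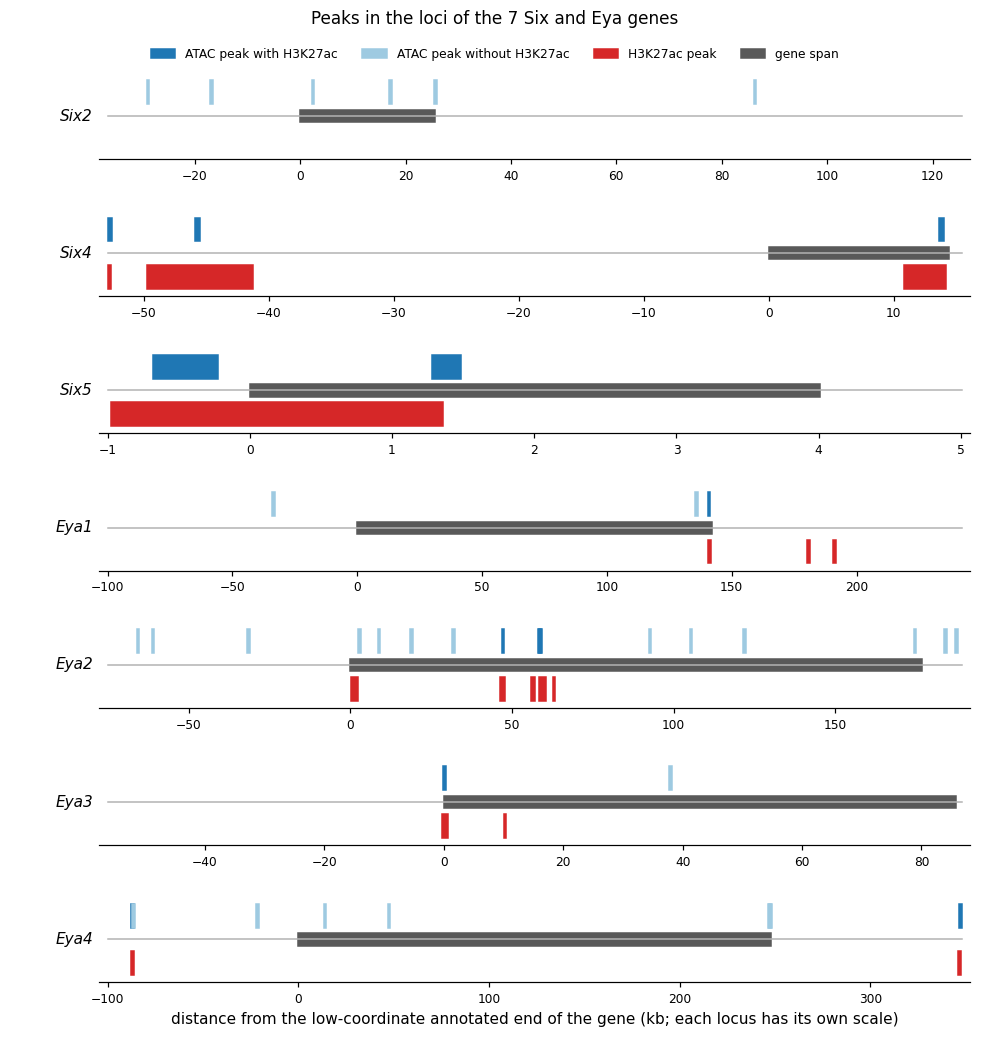
Loci of the 7 genes, with ATAC peaks above the line (dark blue where they overlap H3K27ac, light blue where they do not), H3K27ac peaks in red below it and the gene span in grey, in kb from the low-coordinate end of the gene and each on its own scale. Peaks narrower than 0.3% of a locus are drawn at that width. The H3K27ac peaks of Eya2 lie at its low-coordinate end and in a group that begins 46.1 kb inside the gene, and Six2 has none.

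Eya2, an Eya coactivator known from sensory precursors and muscle, had the most peaks of the 7 loci and a marked end without an ATAC peak of its own. The H3K27ac peak at its low-coordinate end (chr2:165595141-165597376) measured 2236 bp and began 113 bp inside the annotated span. No ATAC peak overlapped it. The nearest one, of 316 bp (chr2:165597631-165597946), began 255 bp beyond its inner edge, and with a window of 2.5 kb it counts as a peak at the end. Among the 457 H3K27ac peaks at gene ends without ATAC, 3.94% were at least as wide.

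The interior of Eya2 held a group of 4 more H3K27ac peaks within 17 kb (chr2:165641178-165658172), of 1773, 1031, 2204 and 237 bp from low to high coordinates. These covered 30.9% of that stretch. The first contained 1 ATAC peak of 192 bp and the third contained 2, of 111 and 188 bp, whereas the second and the fourth contained none. These 3 were the only acetylated ATAC peaks of the locus. The other 13 ATAC peaks lacked the mark, 8 of them inside the gene and 5 in the flanks, and they measured 99 to 470 bp. Beyond the acetylated group, towards the high-coordinate end, 6 ATAC peaks followed without any H3K27ac peak.

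Eya2 also stood high among all loci by number of peaks. It had 16 ATAC peaks, and 0.525% of all loci had at least as many. Its 5 H3K27ac peaks were matched or exceeded by 3.43% of loci. The locus is long (264 kb, and 93.2% of loci are smaller). Per 100 kb it had 6.06 ATAC and 1.89 H3K27ac peaks, against medians of 2.85 and 0.992 over all loci, and 26.3% and 36.8% of loci reached these densities. By density, then, Eya2 was above the median locus but not near the top.

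Eya1, the Eya gene of kidney and ear development, had 1 acetylated open region and few other peaks. At the high-coordinate end an H3K27ac peak of 871 bp (chr1:14309524-14310394) enclosed an ATAC peak of 430 bp, which lay 924 bp from the annotated end, just within the window. With a window of 0.5 kb neither counts. One more ATAC peak of 141 bp lay 6.23 kb from the same end and another of 153 bp lay in the low-coordinate flank, both without H3K27ac. In the high-coordinate flank, 38.2 and 48.8 kb from the gene, lay H3K27ac peaks of 806 and 838 bp without ATAC, and their nearest ATAC peaks were 39.2 and 49.7 kb away. The 342 kb locus had 0.877 peaks per 100 kb of each assay. The medians over all loci were 2.85 for ATAC and 0.992 for H3K27ac.

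Eya3 had a compact start with both assays. The H3K27ac peak (chr4:132638737-132639776) measured 1040 bp, the ATAC peak inside it (chr4:132638831-132639324) measured 494 bp, and both spanned the annotated start. The H3K27ac width was near the median of that list (1036 bp). Away from the start, the 143 kb locus held only an ATAC peak of 111 bp, 37.9 kb inside the gene, and an H3K27ac peak of 342 bp, 10.1 kb inside the gene, which did not meet. The flanks held no peak of either assay, although the span of Xkr8, a membrane protein gene, lies 135 bp beyond the other end.

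Eya4, the Eya gene linked to hearing loss and heart disease in humans, had ATAC peaks but no H3K27ac peak near its start. Its ATAC peaks near the start were narrow, 203 and 156 bp (chr10:23350000-23350202 and chr10:23350434-23350589). Both peaks lay upstream of either listed start but inside the annotated span, 636 and 249 bp from its end. The H3K27ac peak nearest to them was 98.5 and 98.1 kb away. The 248 kb gene contained no H3K27ac peak and 2 further ATAC peaks of 130 and 123 bp. H3K27ac peaks were listed only far out in the flanks. An H3K27ac peak of 1628 bp with an ATAC peak of 302 bp inside it lay 97.8 kb beyond the high-coordinate end, close to the 100 kb limit. Another of 439 bp with an ATAC peak of 278 bp lay 86.6 kb from the low-coordinate end. With flanks of at most 50 kb the Eya4 locus held 5 ATAC and 0 H3K27ac peaks.

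**Figure D3:**
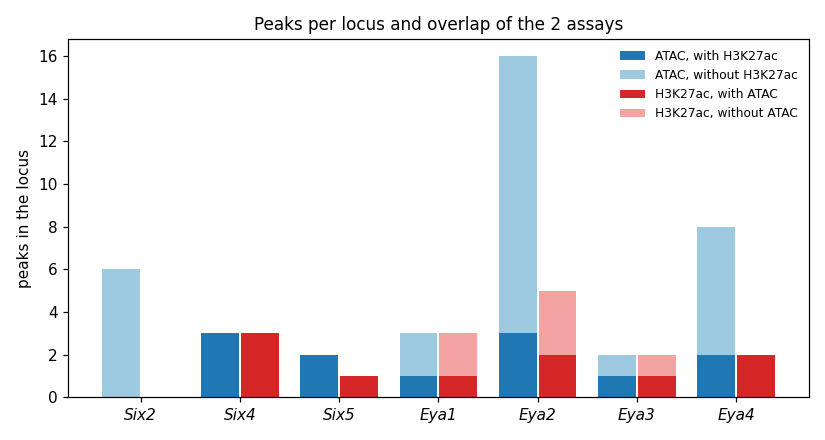
Peaks in each locus (bar height, number of peaks), split by overlap of at least 1 bp with the other assay. ATAC counts are the left bar and H3K27ac counts the right bar of each gene. Eya2 has 16 ATAC and 5 H3K27ac peaks, Eya4 has 8 and 2, and Six2 has 6 and 0.

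Over the 7 loci together, 12 of 40 ATAC peaks overlapped H3K27ac (30%, 95% Wilson interval 18.1 to 45.4), against 39.6% of all ATAC peaks. The Six2, Six4 and Six5 loci contributed 5 of 11 (45.5%, 21.3 to 72) and the Eya loci 7 of 29 (24.1%, 12.2 to 42.1), and these intervals overlap. Without Eya2, which holds the most peaks, the share was 9 of 24 (37.5%). At the ends of the 7 genes 4 of 7 ATAC peaks were acetylated, against 72.8% of all ATAC peaks at an end of any protein-coding gene. Inside the genes 4 of 18 were and in the flanks 4 of 15, against 22.0% of all ATAC peaks away from gene ends, so these counts lay near the background. The flank count leaves out only the ends of the 7 genes, whereas the background leaves out the ends of all protein-coding genes. The acetylated Six4 flank peak of 495 bp lay on an end of another protein-coding gene. In the other direction, 6 of 16 H3K27ac peaks overlapped no ATAC peak (37.5%, 18.5 to 61.4), against 31.1% of all H3K27ac peaks. All 6 lay at Eya genes (3 at Eya2, 2 at Eya1 and 1 at Eya3). They were 6 of 12 H3K27ac peaks of the Eya loci (50%, 25.4 to 74.6). The Six2, Six4 and Six5 loci held only 4 H3K27ac peaks, of which 0 lacked ATAC (0%, 0 to 49). These intervals overlap, and both hold the share of all H3K27ac peaks. The intervals cover counting error only, and peaks of 1 locus are not independent of each other.

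Pooled over the 7 loci, acetylated ATAC peaks had the higher median width, but not at Eya2. The median was 325.5 bp for the 12 acetylated ATAC peaks and 145 bp for the 28 others. At the ends of the 7 genes the medians were 442 bp (4 peaks) and 203 bp (3 peaks), and away from these ends 243 bp (8 peaks) and 141 bp (25 peaks). Over all ATAC peaks the medians were 417 and 244 bp at gene ends and 277 and 156 bp away from them. At Eya2, which held the most peaks, the 3 acetylated ATAC peaks had a median of 188 bp and the 13 others 192 bp. Without Eya2 the medians were 430 bp (9 peaks) and 141 bp (15 peaks). The widest unacetylated peaks were a flank peak of Eya2 at 470 bp and the Six2 start at 435 bp. In the H3K27ac list, the 10 member peaks with ATAC had a median of 1988.5 bp and the 6 without had 822 bp. Over all H3K27ac peaks the medians were 1278 and 518 bp at gene ends and 1125.5 and 609 bp away from them. Whole peaks were measured, also the Six4 flank peak of 8841 bp with only 276 bp in the locus. Of the 40 ATAC peaks, 32 were nearer to an end of their own gene of the 7 than to any other protein-coding gene's end, as were 12 of the 16 H3K27ac peaks. Among these 32 ATAC peaks the acetylated share was 28.1%.

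**Figure D4:**
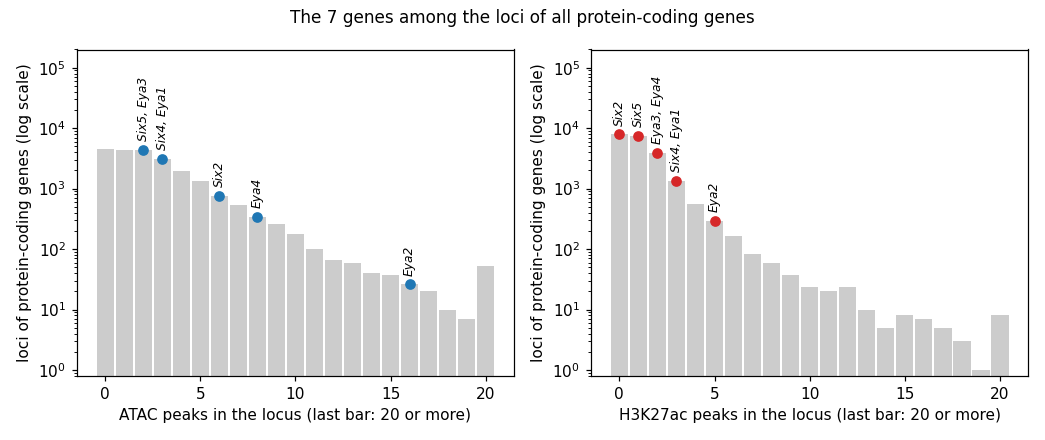
Number of loci (log scale) by number of ATAC peaks (left) and H3K27ac peaks (right) in the locus, over all protein-coding genes, with the 7 genes marked as points. Eya2 lies far to the right for ATAC with 16 peaks, whereas Six2 stands at 0 for H3K27ac.

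Before the annotated starts, base composition did not follow the mark among the 5 genes with an entry in the promoter table. The starts without an H3K27ac peak had the most CG dinucleotides in 250 bases, 35 at Eya4 and 26 at Six2. The marked starts had 18 at Eya3, 15 at Six4 and 13 at Six5. GC content was 74% at Eya4 and 64.8% at Six2, against 58.4% at Eya3, 62% at Six4 and 62.8% at Six5. Over 21263 annotated starts of protein-coding genes, those with both assays in this window had a median of 19 CG dinucleotides and 62.8% GC, those with ATAC alone 13 and 60.4%, and those with neither 2 and 47.2%. The shown Eya4 start lay in the top 3.79% of all starts by CG dinucleotides, and the other listed one, with 25, in the top 13.8%. The other listed Six4 start had 13. ATAC met this window at 53.8% of all starts and at all 5 of the genes, and H3K27ac met it at 43.1% of all starts and at 3 of the 5 (Six4, Six5 and Eya3).

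**Figure D5:**
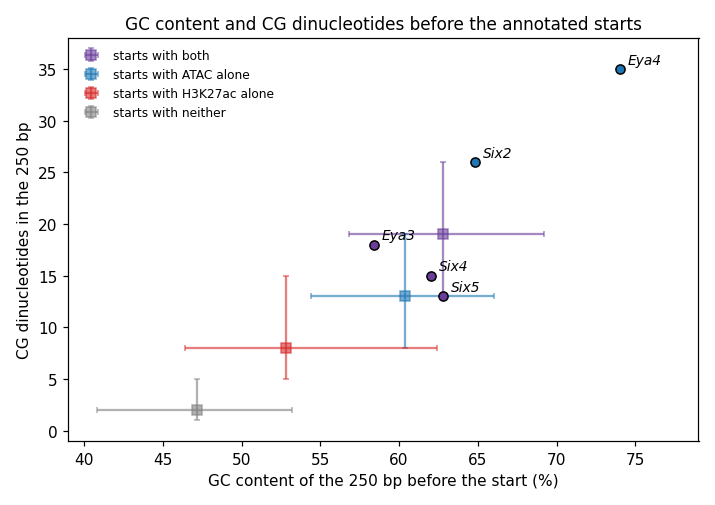
GC content (per cent) and number of CG dinucleotides in the 250 bases before the annotated start of the 5 genes (circles, purple with both assays and blue with ATAC alone), with the median (square) and the quartiles (bars) of all starts in each state. Eya4 and Six2, without H3K27ac, have more CG dinucleotides than Six4, Six5 and Eya3.

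Short motifs were then searched on both strands of the printed sequences. The MEF3 site, TCAGGTT, which sine oculis factors are known to bind, occurred in 3.3% of all starts. It was found before 1 of the 5 genes, Six4, from position -97 to -91 relative to the start, on the reverse strand and inside the ATAC peak. A GC box, GGGCGG, was found in the shown sequence of all 5 genes and in 42.6% of all starts. All 5 sequences met an ATAC peak, and open starts have this box more often than all starts. It was in 67.3% of starts with both assays in this window and in 62% of those with ATAC alone. The CCAAT box, CCAAT, was found before Six2 from -87 to -83 and in 35.4% of all starts. An E-box, CANNTG, was found before Eya3 from -126 to -121 and in 62.8% of all starts. The Runx motif TGTGGT and the TATA box TATAAA were in none of the 5 sequences shown (12.4% and 11.6% of all starts). None of these matches overlapped another, and a match is a string of letters, not a measured binding site.

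Genes that work with these factors and their Eya partners showed a mixture of states too. The list of 12 holds Pax factors, Dach cofactors, Sobp, which binds sine oculis proteins, Groucho family genes (Tle1 to Tle5) and the corepressor Ski. Of these, 10 were open at an end and 8 acetylated (60.4% and 49.3% of all genes). Both marks lay at Pax3, a neural crest and muscle factor, at Dach1, Sobp, Tle1, Tle3, Tle4, Tle5 and Ski. Pax2, an ear and kidney factor, and Dach2 were open without H3K27ac at an end, and Pax8 and Tle2 carried neither. Dach1 held 5 H3K27ac peaks in its span and Dach2 held 0. Sobp had 14 ATAC peaks in its locus, 7 of them acetylated, and Pax2 had 12 with 0 acetylated. The median locus of the list held 4 ATAC and 2 H3K27ac peaks, against 3 and 2 for the 7 loci and 2 and 1 over all protein-coding genes. These loci differ in size, with medians of 252 kb for the list, 162 kb for the 7 genes and 67.4 kb over all genes. Per 100 kb the median locus of the list held 3.41 ATAC and 0.812 H3K27ac peaks, against 3.7 and 1.4 for the 7 loci and 2.85 and 0.992 over all genes.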

How the data were processed

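Dorsal root ganglion cells from 2 ATAC, 2 H3K27ac and 2 input preparations were processed by the submitters with cutadapt 1.18, Bowtie2 2.3.5.1, MACS2 and bedtools on mm10, per the submitters' processing notes. The authors deposited 1 consensus peak list per assay, which gives each peak's first and last position in bp. How replicates were merged, and with which thresholds, is not given in the sources used here. Samples that share a number across assays have no values of their own in these lists.

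Starts were read as counted from 0 and are printed from 1. Of 43739 ATAC and 19928 H3K27ac peaks, 43652 and 19924 lay on chromosomes 1 to 19, X and Y. Genes were RefSeq spans without strand. Overlap means at least 1 bp. A protein-coding gene that overlaps a span and runs past its end leaves no flank there. Each locus and the background over 21887 genes were counted alike in Python 3.11.15 with pandas 2.3.3, after the counting was tested on simulated data. No test was run, since members are not replicates, and intervals are 95% Wilson intervals. Promoter sequences are from RefSeq (GRCm38.p6), where 5 of 7 genes matched. Drgx and Aes were matched as Prrxl1 and Tle5.

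The members, the lists and the alternatives (windows, flanks, the wider 50% of peaks, overlap) were chosen with earlier results of these data known. The genes named are the 7 members and those of the fixed lists. The peaks named are those at gene ends, the widest of each locus and acetylated distal ones, and others were added after their values were seen. Some markers of the glial list are not reported here.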

Additional observations from a re-analysis of the deposited data

How the results depend on the processing

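The counts at gene ends moved by at most 1 gene under windows of 0.5 and 2.5 kb and with the wider 50% of each list. Eya1 was lost for both assays at 0.5 kb, Eya2 joined for ATAC at 2.5 kb, and with the wider peaks Eya4 was lost for ATAC and Eya1 for H3K27ac. The number of peaks in the 7 loci depended more on the rule: the gene spans with 1 kb alone held 25 ATAC and 10 H3K27ac peaks, and the wider 50% of each list held 15 and 9. By construction, both settings leave fewer peaks to count. Flanks of 50 kb and 200 kb gave 33 and 45 ATAC and 13 and 16 H3K27ac peaks. The acetylated share of ATAC peaks lay between 26.7% and 40% under all alternatives, inside the interval of the reported value. Of 70 recomputed counts for single genes, 22 moved by over 1.5 times. Passing over overlapping genes, an alternative chosen after seeing the data, gave 44 ATAC and 18 H3K27ac peaks, with Six4 at 5 of each and Six5 at 4 ATAC peaks. No paired analysis was possible because each list merges the replicates of its assay. Peaks missing from a list may lie under an unknown depth limit, so a region without a peak is not shown to be closed or unmarked.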

Other observations

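Genes known as targets of sine oculis factors in other tissues also differed among themselves. Of 8 such genes, 7 were open at an end and 6 acetylated, against 60.4% and 49.3% of all protein-coding genes. The proneural gene Neurog1 carried both, with 8 ATAC and 7 H3K27ac peaks in its locus, and so did Neurod1, Slc12a2, Ezr and Myc. Gdnf, the kidney and nerve growth factor gene, had H3K27ac at an end without ATAC. Myog, the muscle regulator, and Ccnd1, the cyclin gene, were open at an end without H3K27ac. The Myog locus held 2 ATAC peaks and 0 H3K27ac peaks, and the Ccnd1 locus held 7 ATAC peaks, of which 1 was acetylated.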
